A study of Homo sapiens with 28 samples.

Results

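After 2 days in suspension, viable breast cancer cells that overexpressed the tropomyosin Tpm2.1 were set against empty-vector control cells of the same line. The comparison uses 4 of the 28 libraries of the study, picked by their labels and by no measured value. The first of its groups is the non-apoptotic fraction of MDA-MB-231 cells made to overexpress Tpm2.1 (2 libraries, called viable Tpm2.1 cells here). Its control is MDA-MB-231 cells with an empty vector (EV) at the same time (2 libraries). MDA-MB-231 is a human triple-negative breast cancer line with a mesenchymal phenotype. Both lines were kept in the same serum-containing medium with puromycin and were suspended in ultra-low attachment plates. Suspended Tpm2.1 cells were then parted on Annexin V beads, which hold cells that expose phosphatidylserine, an early sign of apoptosis. The viable cells are those labelled as not apoptotic in that separation. The labels give this separation for suspended Tpm2.1 cells alone, so that the effect of Tpm2.1 and that of the separation cannot be told apart at 2 days. The same holds at 5 hours, 1 day and 4 days of suspension, whose Tpm2.1 and EV libraries are used below for comparison. Tpm2.1 and EV cells grown attached for 6 hours were both left unseparated. Each of the 14 groups has 2 libraries, titled as biological replicates. The sources used here do not say whether the replicates came from separate cultures, so the p-values measure the spread between these libraries, which may be technical. No source used here gives the promoter of the construct or says whether a line is a single clone.

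Tropomyosins are coiled-coil proteins that lie along actin filaments and set which motors and severing proteins reach them. Tpm2.1 is a high-molecular-weight product of TPM2 that sits on stress fibres and is lost in many transformed cells. Anoikis is the apoptosis that normal adherent cells enter once they lose contact with matrix, and tumour cells commonly resist it. NF-kB is a transcription factor family kept in the cytoplasm by IkB proteins, whose release leads to expression of cytokines, chemokines, survival genes and its own inhibitors. The unfolded protein response is the programme by which cells raise chaperones and folding enzymes of the endoplasmic reticulum (ER).

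Library totals were 20125314 and 15495445 counts for viable Tpm2.1 cells, against 14679852 and 15480081 counts for EV cells, within the range of 13043529 to 27416335 over the study. The log2 levels of the replicates correlated across genes at r = 0.991 in viable Tpm2.1 cells and r = 0.99 in EV cells. A chi-square of the replicates' counts over genes with at least 20 counts in both together came to 5.2 per degree of freedom in viable Tpm2.1 cells and 2.37 in EV cells, so the viable Tpm2.1 replicates lay further apart relative to counting error, while the fit shares its estimate of spread between groups. Levels are given as CPM, counts scaled to a common library size, in the order of replicate 1 and replicate 2. Fold changes are log2 values of viable Tpm2.1 over EV cells with their standard error, from edgeR's quasi-likelihood test over 17191 genes. A gene is said to have risen or fallen where its Benjamini-Hochberg adjusted p was under 0.05. In bulk RNA, fewer cells that express a gene and less RNA of it per cell cannot be told apart.

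TPM2, the gene whose product was overexpressed, followed the labels in all libraries. TPM2 (chr9:35681992-35690121, hg38) had 6081 and 5564 CPM in viable Tpm2.1 cells, against 40.1 and 43.2 CPM in EV cells. Both Tpm2.1 libraries lay more than 100-fold above both EV libraries, with a log2 fold change of 7.13 ± 0.097 (edgeR adjusted p = 1.45e-37). Reads were counted per gene, so that these levels cover every TPM2 isoform and not Tpm2.1 alone. In attached cells TPM2 had 3242 and 3361 CPM in Tpm2.1 cells, against 27.2 and 22.7 CPM in EV cells. Its 2-day level in the apoptotic fraction was 4494 and 4519 CPM. Over the whole study TPM2 lay between 2461 and 7861 CPM in the 18 Tpm2.1 libraries and between 22.7 and 46.1 CPM in the 10 EV libraries. Per length, in the deposited FPKM, TPM2 stood at 1833 and 1683 in viable Tpm2.1 cells, against 12.2 and 13.2 in EV cells. TPM4, which encodes the main low-molecular-weight tropomyosin of many migrating cells, had 91.7 and 93.3 FPKM in viable Tpm2.1 cells, against 78.1 and 77.7 FPKM in EV cells. TPM2 was the highest of the 4 tropomyosin genes in viable Tpm2.1 cells and the third in EV cells on this scale. TPM3 and TPM4 rose slightly, by 0.35 and 0.26 on the log2 scale, while TPM1 had a log2 fold change of 0.03 ± 0.062 (edgeR adjusted p = 0.684).

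EPHA2, a receptor tyrosine kinase that signals through AKT and is linked to anoikis in other systems, had 611 and 575 CPM in viable Tpm2.1 cells, against 676 and 715 CPM in EV cells. Every viable Tpm2.1 library lay below both EV libraries, with a log2 fold change of -0.23 ± 0.051 (edgeR adjusted p = 0.000323), which no longer passed after correction for GC content (log2 fold change -0.07, edgeR adjusted p = 0.212). In attached cells the EPHA2 difference was 0.12 ± 0.051, and the difference between both line differences was -0.35 ± 0.072 (edgeR adjusted p = 0.00023). Its value after correction for GC content is not given here. AKT1 and AKT2 encode kinases of the survival pathway below PI3K. AKT2 fell, with 96.3 and 96.3 CPM in viable Tpm2.1 cells, against 139.6 and 144 CPM in EV cells and a log2 fold change of -0.56 ± 0.065 (edgeR adjusted p = 4.89e-09). AKT1, at 158 and 139 CPM in viable Tpm2.1 cells and 153 and 163 CPM in EV cells, had a log2 fold change of -0.09 ± 0.067 (edgeR adjusted p = 0.301).

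Over all 17191 genes tested by edgeR, 7634 passed, which is 44.4% of them. Of these, 3999 (23.3%) rose and 3635 (21.1%) fell in viable Tpm2.1 cells, and the median log2 fold change of all genes was 0.0052. Past 2-fold there were 1693 genes (9.85%), of which 780 rose (4.54%) and 913 fell (5.31%). Among the 13343 protein-coding genes 595 rose and 452 fell past 2-fold. The gene counts of each list below are to be read against these shares.

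TPM2 led the 12 highest protein-coding genes with at least 10 CPM. MMP1 (chr11:102789920-102798160), the collagenase that opens fibrillar collagen, had 7174 and 6852 CPM in viable Tpm2.1 cells, against 76.9 and 78.7 CPM in EV cells, a log2 fold change of 6.49 ± 0.089 (edgeR adjusted p = 1.45e-37). Its groups were far apart and its replicates were close. MMP3, stromelysin 1, had 125 and 146 CPM in viable Tpm2.1 cells, against 3.31 and 3.24 CPM in EV cells. SPP1, the integrin ligand osteopontin, had 52.7 and 87.0 CPM in viable Tpm2.1 cells, against 0.778 and 1.12 CPM in EV cells, and its 2 viable Tpm2.1 libraries differed more from each other than those of MMP1. The cytokine IL1B had 989 and 1038 CPM in viable Tpm2.1 cells, against 27.5 and 28.9 CPM in EV cells, and PTGS2, the inducible cyclooxygenase, had 1541 and 2112 CPM in viable Tpm2.1 cells, against 72.7 and 72.3 CPM in EV cells. TIE1, an orphan receptor of the angiopoietin system, had 90.3 and 84.3 CPM in viable Tpm2.1 cells, against 1.82 and 2.49 CPM in EV cells. RSAD2, the antiviral protein viperin, and GPAT2, a glycerol phosphate acyltransferase, rested on few counts in EV cells. RSAD2 had 257 and 250 counts in viable Tpm2.1 cells, against 2 and 9 in EV cells, and GPAT2 had 288 and 158 counts in viable Tpm2.1 cells, against 2 and 6 in EV cells. FBXL7, a ubiquitin ligase adaptor, and ABI3, a member of the ABI family of actin regulators, had log2 fold changes of 4.82 ± 0.31 and 4.65 ± 0.26. BOLA2B also ranked among the 12, with 20.3 and 3.22 CPM in viable Tpm2.1 cells, against 0.324 and 0.561 CPM in EV cells. Its viable Tpm2.1 libraries differed several-fold, its rise was lost without replicate 1 of viable Tpm2.1 cells (log2 fold change 2.84, edgeR adjusted p = 0.106), and its reads may be shared with the near-identical copy BOLA2.

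**Figure D1:**
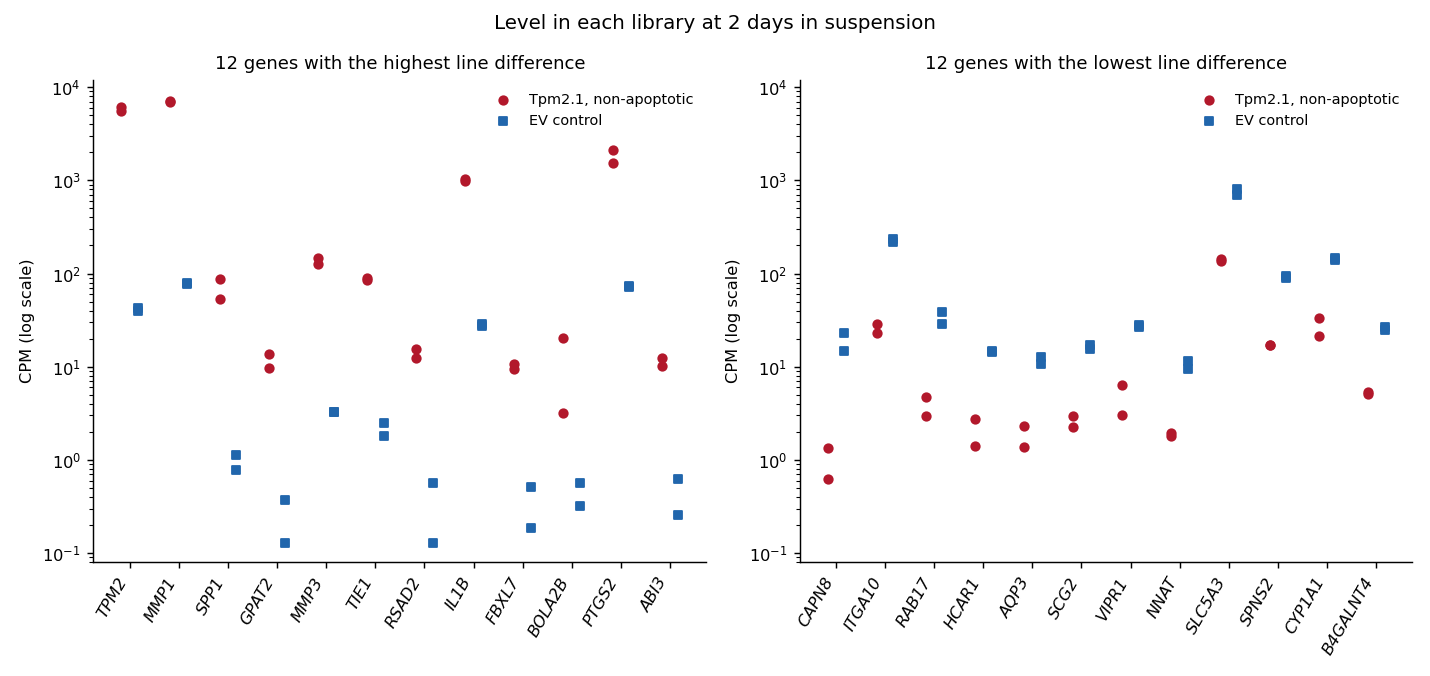
Levels of the 12 highest and 12 lowest protein-coding genes by log2 fold change in each of the 4 libraries at 2 days, in CPM on a log axis, with viable Tpm2.1 cells and EV cells as separate symbols. The genes were picked by fold change among those that passed, so the gap between the symbols of both groups follows from the choice. MMP1 lies at 7174 and 6852 CPM in viable Tpm2.1 cells and at 76.9 and 78.7 CPM in EV cells. ITGA10 lies at 28.8 and 23.3 CPM in viable Tpm2.1 cells and at 217 and 237 CPM in EV cells.

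Among the 12 lowest genes, CAPN8 (chr1:223538007-223665734), a calpain protease, had 1.35 and 0.620 CPM in viable Tpm2.1 cells, against 14.8 and 22.9 CPM in EV cells (log2 fold change -4.21 ± 0.38, edgeR adjusted p = 2e-11). ITGA10 (chr1:145891208-145910189), the alpha chain of a collagen-binding integrin, had 28.8 and 23.3 CPM in viable Tpm2.1 cells, against 217 and 237 CPM in EV cells (log2 fold change -3.11 ± 0.12, edgeR adjusted p = 3.66e-22). Both genes were picked as extreme in this comparison, so the gap between their libraries follows from the choice. SLC5A3, the sodium and myo-inositol cotransporter that responds to osmotic stress, had 136 and 143 CPM in viable Tpm2.1 cells, against 703 and 810.5 CPM in EV cells. SPNS2, an exporter of sphingosine 1-phosphate, had 17.2 and 17.2 CPM in viable Tpm2.1 cells, against 89.3 and 93.8 CPM in EV cells, and CYP1A1, a cytochrome P450 under the aryl hydrocarbon receptor, had 33.0 and 21.3 CPM in viable Tpm2.1 cells, against 139.5 and 147 CPM in EV cells. RAB17, a small GTPase of epithelial recycling endosomes, had 4.76 and 2.97 CPM in viable Tpm2.1 cells, against 28.5 and 38.3 CPM in EV cells. The rest of the 12 were HCAR1 (a lactate receptor), AQP3 (a water and glycerol channel), SCG2 (secretogranin II), VIPR1 (a receptor for vasoactive intestinal peptide), NNAT (neuronatin) and B4GALNT4 (a glycosyltransferase), with log2 fold changes between -2.77 and -2.31.

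The interleukin 1 system rose. Of its 11 tested genes 8 rose and 0 fell, with a median log2 fold change of 1.67 (1.58 with IL33, which had no EV count, set to its bound; named for that reason), against 0.0052 over all genes. IL1B (chr2:112829751-112836903), a secreted ligand that starts inflammatory signalling, had a log2 fold change of 5.17 ± 0.093 (edgeR adjusted p = 1.54e-33). IL1A, the sister ligand that can act on the cell surface, had 35 and 33.4 CPM in viable Tpm2.1 cells, against 5.25 and 5.36 CPM in EV cells. The receptor chain IL1R1 had 18.5 and 19.2 CPM in viable Tpm2.1 cells, against 6.68 and 6.05 CPM in EV cells (log2 fold change 1.57 ± 0.13, edgeR adjusted p = 3.05e-12). Ligands and receptor were thus both higher in viable Tpm2.1 cells. They were picked by their p in this comparison, so the gap between libraries is no further evidence. The prostaglandin E2 enzyme genes PTGS2, which is counted in this list, and PTGES had log2 fold changes of 4.65 ± 0.12 and 1.55 ± 0.15. Whether their rise followed from interleukin 1 was not tested.

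Among 12 genes of the IL6 family and the colony stimulating factors, 9 rose and 2 fell (median 1.37). CSF3, the granulocyte growth factor, had 416 and 472 CPM in viable Tpm2.1 cells, against 71.4 and 70.2 CPM in EV cells, with a log2 fold change of 2.65 ± 0.073 (edgeR adjusted p = 3.6e-27). IL11, a gp130 cytokine, had 187 and 176 CPM in viable Tpm2.1 cells, against 27.6 and 29.9 CPM in EV cells. IL6 had 39.1 and 55.3 CPM in viable Tpm2.1 cells, against 1.23 and 2.93 CPM in EV cells, and CSF2, the granulocyte-macrophage factor, had 15.3 and 18.4 CPM in viable Tpm2.1 cells, against 2.72 and 2.06 CPM in EV cells. These 4 genes were picked by their p in this comparison, so the gap between the groups follows from the choice. CSF1, the growth factor of macrophages, went the other way, with 439 and 490.3 CPM in viable Tpm2.1 cells, against 1134 and 1206 CPM in EV cells and a log2 fold change of -1.33 ± 0.065 (edgeR adjusted p = 3.17e-19). The other gene that fell was the receptor IL6R (log2 fold change -1.11), named after its value was seen.

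Of 14 chemokine system genes tested, 10 rose and 1 fell, with a median log2 fold change of 3.60 (3.41 with CCL3, which had 0 and 9 counts in viable Tpm2.1 cells and none in EV cells, set to its bound). CXCL8, the main neutrophil attractant in humans, had 295 and 412 CPM in viable Tpm2.1 cells, against 23.7 and 22.7 CPM in EV cells (log2 fold change 3.92 ± 0.12, edgeR adjusted p = 1.76e-25). CXCL1, which acts on the same receptor CXCR2, had 87.9 and 112 CPM in viable Tpm2.1 cells, against 5.25 and 5.98 CPM in EV cells. CXCL2 and CXCL3 are further ligands of that receptor. CXCL2 had 24.2 and 27.4 CPM in viable Tpm2.1 cells, against 2.53 and 2.99 CPM in EV cells. CXCL3 had 30.1 and 31.1 CPM in viable Tpm2.1 cells, against 1.04 and 2.87 CPM in EV cells. That the groups stayed apart follows from the choice of these genes by p in this comparison. CXCL1, CXCL2 and CXCL3 are close copies in sequence, and how shared reads were assigned to them was not stated, so their single values are uncertain. CXCL10 (chr4:76021117-76023497), an interferon-induced attractant of T cells, had 19.4 and 21.3 CPM in viable Tpm2.1 cells, against 0.908 and 1.18 CPM in EV cells (log2 fold change 4.27 ± 0.23, edgeR adjusted p = 1.46e-17). CCL2, a monocyte attractant, was the gene that fell, with 0.240 and 0.496 CPM in viable Tpm2.1 cells, against 1.49 and 2.31 CPM in EV cells (edgeR adjusted p = 0.000333); 2 genes fell with protein-coding genes alone, after correction for GC content with or without a replicate block, with the libraries of the contrast alone and without the apoptotic fraction at 4 days. It was named after its value was seen, and it rests on low levels in both groups.

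The 9 bases of an NF-kB binding motif in the form GGNNNTTCC, or GGAANNNCC as read on the other strand, were found within 250 bases upstream of the start in 9 of the 11 chemokine promoters in the RefSeq table (81.8%), against 4678 of 27305 promoters (17.1%) and 2188 of the 11147 promoters of tested genes (19.6%). The share was also above that of tested genes in lists where more genes fell than rose, at 36.8% for cholesterol synthesis genes, 38.1% for the PI3K and AKT pathway and 37.5% for YAP and TAZ targets. Both forms can mark the same bases, and any such match is a description of letters, not a binding site or a cause. The 9 chemokine system genes with a match had a median log2 fold change of 3.68 and 8 of them rose. The 2 without one, CCL3 and CCL26, did not pass. The 200 bases before the RefSeq start (GRCh38.p14) of CXCL10, the chemokine gene with the highest fold change among those that passed, and of CXCL1 are printed because they show the spacing of these matches, which are in capitals. CXCL10 lies at chr4:76023498-76023697 on the minus strand and CXCL1 at chr4:73869193-73869392 on the plus strand.
CXCL10: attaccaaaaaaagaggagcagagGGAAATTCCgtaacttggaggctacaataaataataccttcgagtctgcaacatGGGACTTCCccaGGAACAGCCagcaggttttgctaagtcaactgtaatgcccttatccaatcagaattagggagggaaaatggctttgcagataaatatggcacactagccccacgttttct
CXCL1: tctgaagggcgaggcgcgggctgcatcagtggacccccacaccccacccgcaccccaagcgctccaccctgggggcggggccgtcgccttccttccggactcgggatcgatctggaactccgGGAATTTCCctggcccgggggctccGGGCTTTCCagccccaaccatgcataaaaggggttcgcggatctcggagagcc
CXCL10 holds 3 matches in this stretch and CXCL1 holds 2. In CXCL10 they begin 176, 122 and 110 bases upstream of the start, and in CXCL1 78 and 53 bases upstream of it.

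NF-kB subunits and the genes that feed back on NF-kB had a lower median than chemokines. Of 17 tested, 13 rose and 0 fell (median 0.84). BIRC3, an inhibitor of apoptosis and ubiquitin ligase induced by NF-kB, had 162 and 163 CPM in viable Tpm2.1 cells, against 27.8 and 27.2 CPM in EV cells, a log2 fold change of 2.56 ± 0.086 (edgeR adjusted p = 1.48e-24). TNFAIP3, the deubiquitinase A20 that shuts NF-kB off, had 66.8 and 63.4 CPM in viable Tpm2.1 cells, against 16.1 and 16.3 CPM in EV cells. TNIP1, its binding partner, had 590.4 and 593 CPM in viable Tpm2.1 cells, against 172 and 183 CPM in EV cells, and TRAF1, an adaptor of TNF receptors, had 62.0 and 61.1 CPM in viable Tpm2.1 cells, against 22.3 and 24.7 CPM in EV cells. The precursor subunit gene NFKB2 rose by 0.88 (log2). The genes of the other subunits RELA, NFKB1 and REL, named after their values were seen, did not pass, with log2 fold changes of 0.13, 0.13 and 0.17. In this list 8 of 15 promoters (53.3%) held the same motif, and in the interleukin 1 system 0 of 9 did.

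**Figure D2:**
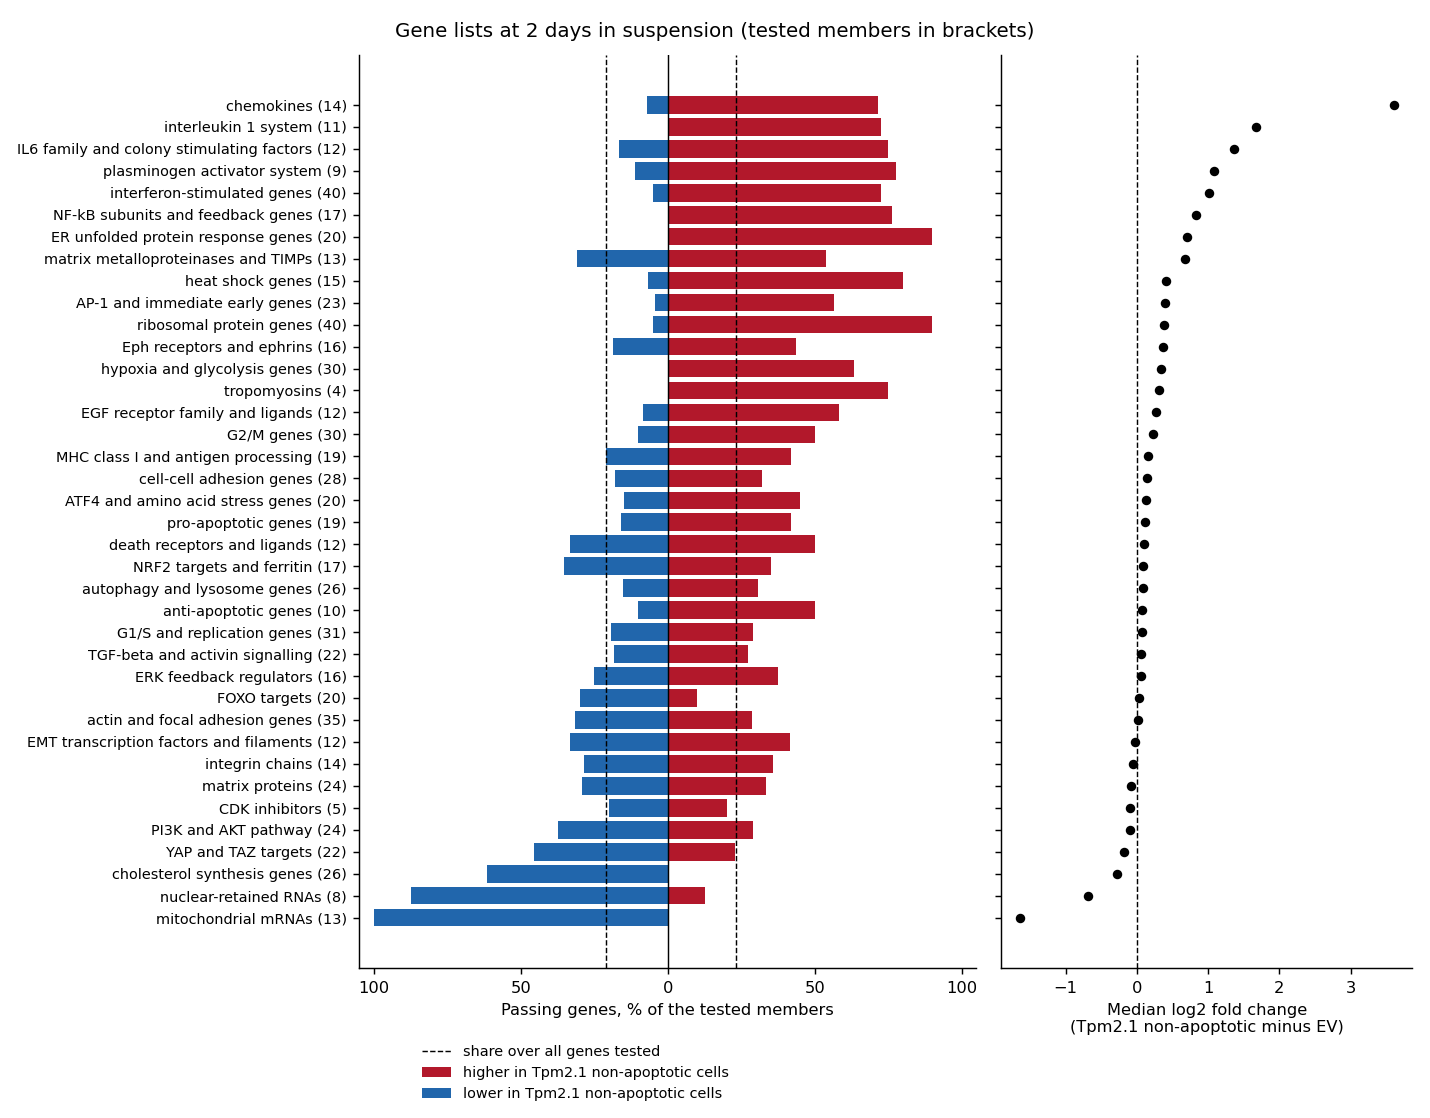
Left, the share of each list's tested members that rose (right of 0) or fell (left of 0) in viable Tpm2.1 against EV cells at 2 days, in percent, with the shares over all genes (23.3% and 21.1%) as dashed lines; right, the median log2 fold change of each list. Chemokines have the highest median of the lists drawn, 3.60, and the 13 mitochondrial mRNAs the lowest, -1.64.

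Interferon-stimulated genes, which encode antiviral effectors and their sensors, rose in most cases. Of 40 tested, 29 rose and 2 fell, with a median log2 fold change of 1.01. IFIT1, which binds viral RNA ends, had 468 and 593 CPM in viable Tpm2.1 cells, against 79.5 and 73.9 CPM in EV cells (log2 fold change 2.79 ± 0.097, edgeR adjusted p = 5.02e-24). Its partners are IFIT2 and IFIT3. IFIT2 had 398 and 459 CPM in viable Tpm2.1 cells, against 63.3 and 59.3 CPM in EV cells. IFIT3 had 388 and 432 CPM in viable Tpm2.1 cells, against 78.9 and 83.3 CPM in EV cells. OASL, a relative of the oligoadenylate synthetases, had 212 and 219 CPM in viable Tpm2.1 cells, against 30.4 and 34.3 CPM in EV cells. ISG15, a ubiquitin-like modifier, had 304 and 316 CPM in viable Tpm2.1 cells, against 58.3 and 64.3 CPM in EV cells. With these 5 genes picked by the smallest p of the list, the gap between their libraries follows from the choice. CMPK2, a mitochondrial nucleotide kinase, had 24 and 12 counts in viable Tpm2.1 cells and none in EV cells, and was at least 4.97-fold higher against a floor of 3 counts per EV library; it was named after its values were seen. The 2 that fell, named in the same way, were STAT2 and XAF1, with log2 fold changes of -0.46 and -1.54. The number that fell was 4 with protein-coding genes alone or after correction for GC content, with or without a replicate block. STAT2 is a subunit of the interferon-activated transcription factor and XAF1 a pro-apoptotic partner of XIAP.

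The interferon-stimulated response element was searched as GAAA, 2 free bases and GAAA, on both strands and with overlaps counted. It occurred in 17 of 31 promoters of the list (54.8%), against 839 of 27305 (3.07%) and 284 of the 11147 promoters of tested genes (2.55%). The 17 genes with a match had a median log2 fold change of 1.27 and 15 rose; the 14 without a match had a median of 0.54 and 9 rose. The stretches before IFIT1 (chr10:89392423-89392622, plus strand) and ISG15 (chr1:1013297-1013496, plus strand) are shown because IFIT1 has the element on the reverse and ISG15 on the forward strand, in capitals.
IFIT1: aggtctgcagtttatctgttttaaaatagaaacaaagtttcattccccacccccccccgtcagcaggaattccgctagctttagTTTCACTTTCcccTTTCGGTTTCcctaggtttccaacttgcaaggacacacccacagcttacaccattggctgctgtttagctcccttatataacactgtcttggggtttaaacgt
ISG15: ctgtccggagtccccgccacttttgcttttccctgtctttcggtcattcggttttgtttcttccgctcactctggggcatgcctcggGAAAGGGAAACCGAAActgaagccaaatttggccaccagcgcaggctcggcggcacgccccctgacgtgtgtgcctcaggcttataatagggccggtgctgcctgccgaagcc
In IFIT1 a pair of matches stands apart by a few bases, and in ISG15 a pair overlaps in a single run of capitals.

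Secreted proteases and their inhibitors moved in both directions. Of 13 matrix metalloproteinases and TIMPs tested, 7 rose and 4 fell (median 0.68). MMP13, a collagenase, had 8.94 and 8.55 CPM in viable Tpm2.1 cells, against 1.23 and 1.06 CPM in EV cells. MMP9, a gelatinase named after its value was seen, had 52 and 35 counts in viable Tpm2.1 cells, against 3 and 0 in EV cells. The inhibitor TIMP1 rose with the enzymes, with 1149 and 1063 CPM in viable Tpm2.1 cells, against 435 and 449.7 CPM in EV cells (log2 fold change 1.32 ± 0.075, edgeR adjusted p = 2.65e-17). TIMP3, the inhibitor that binds matrix, fell, with 357 and 320.5 CPM in viable Tpm2.1 cells, against 567 and 614 CPM in EV cells (log2 fold change -0.80 ± 0.060). The other 3 that fell, MMP19, MMP24 and TIMP2, had log2 fold changes of -0.96, -0.66 and -0.60 and were named after their values were seen. The number that fell was 2 by DESeq2, and also without replicate 1 or 2 of EV cells or replicate 2 of viable Tpm2.1 cells.

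The plasminogen activator system counted 7 genes that rose and 1 that fell, of 9 tested. PLAU, the urokinase that activates plasminogen, had 92.2 and 82.4 CPM in viable Tpm2.1 cells, against 39.7 and 38.3 CPM in EV cells, and its receptor PLAUR had 239 and 237 CPM in viable Tpm2.1 cells, against 77.9 and 79.2 CPM in EV cells. The inhibitor gene SERPINB2 (PAI-2) rose too, with 22.3 and 22.9 CPM in viable Tpm2.1 cells, against 3.95 and 1.93 CPM in EV cells. TFPI2, an inhibitor of plasmin and of the tissue factor complex, had 713 and 1048 CPM in viable Tpm2.1 cells, against 184 and 186 CPM in EV cells (log2 fold change 2.25 ± 0.11, edgeR adjusted p = 9.18e-19). The gene that fell was SERPINE2 (log2 fold change -0.77), named after its value was seen.

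Matrix protein genes split, with 8 that rose and 7 that fell of 24 tested and a median of -0.09, which turned to 0.019 after correction for GC content and to 0.013 with that correction and a replicate block. LAMB1, a laminin chain of the basement membrane, had 169.7 and 148 CPM in viable Tpm2.1 cells, against 45.3 and 42.1 CPM in EV cells. COL6A1, a chain of the microfibrillar collagen VI, had 627 and 602 CPM in viable Tpm2.1 cells, against 1210.3 and 1276 CPM in EV cells. THBS1, the matricellular thrombospondin 1, had 104.6 and 87.7 CPM in viable Tpm2.1 cells, against 245 and 239.9 CPM in EV cells (log2 fold change -1.33 ± 0.078, edgeR adjusted p = 8.86e-17). LAMB1 was thus higher, and COL6A1 and THBS1 lower, in viable Tpm2.1 cells. All were picked by their p in this comparison, which favours libraries that stay apart.

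Ligands of the EGF receptor rose with a smaller change in the receptor. HBEGF had 119 and 129.9 CPM in viable Tpm2.1 cells, against 30.3 and 30.4 CPM in EV cells, a log2 fold change of 2.03 ± 0.078 (edgeR adjusted p = 1.14e-22). EREG had 307 and 375 CPM in viable Tpm2.1 cells, against 139 and 141 CPM in EV cells, and AREG had 7.98 and 7.93 CPM in viable Tpm2.1 cells, against 3.18 and 3.55 CPM in EV cells. The receptor gene EGFR rose by 0.36 (log2) and ERBB2, its dimer partner, fell, with a log2 fold change of -0.56. In the list of receptors and ligands 7 rose and 1 fell of 12 tested. AP-1 and immediate early genes, the first transcription factors that respond to growth signals and stress, counted 13 that rose and 1 that fell of 23 (median 0.40). ATF3 had 14.4 and 10.1 CPM in viable Tpm2.1 cells, against 3.57 and 2.24 CPM in EV cells, and JUNB, EGR1 and FOSL2 rose by 1.15, 1.15 and 0.68 (log2). JUND was the gene that fell, with 85.3 and 98.2 CPM in viable Tpm2.1 cells, against 151 and 167 CPM in EV cells; 2 genes fell without replicate 1 of viable Tpm2.1 cells, with protein-coding genes alone and without the apoptotic fraction at 4 days.

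Feedback regulators of ERK split into 6 that rose and 4 that fell of 16. DUSP6, the ERK phosphatase, rose by 0.79 (log2) and SPRED1, a suppressor of RAF activation, rose by 0.70 (log2), while the Sprouty gene SPRY4 fell, with a log2 fold change of -0.33. In TGF-beta and activin signalling, 6 rose and 4 fell of 22, near the shares over all genes (23.3% and 21.1%). The activin subunit genes went apart: INHBA had 54.4 and 59.7 CPM in viable Tpm2.1 cells, against 27.4 and 24.6 CPM in EV cells, and INHBB had 7.35 and 4.21 CPM in viable Tpm2.1 cells, against 26.1 and 29.9 CPM in EV cells (log2 fold changes 1.13 ± 0.085 and -2.24 ± 0.19). SMAD6, the inhibitory SMAD of BMP signalling, had 10.5 and 8.74 CPM in viable Tpm2.1 cells, against 37.7 and 28.1 CPM in EV cells. TGFBR2 rose by 0.60 (log2), and the follistatin-like gene FSTL1 by 1.16 (log2).

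Genes of the ER unfolded protein response rose almost throughout. Of 20 tested, 18 rose and 0 fell, with a median log2 fold change of 0.70. HSPA5 (chr9:125234853-125241330), the ER chaperone BiP that holds the stress sensors inactive, had 1283 and 1375 CPM in viable Tpm2.1 cells, against 483 and 466 CPM in EV cells (log2 fold change 1.48 ± 0.069, edgeR adjusted p = 6.41e-20). SDF2L1, part of its chaperone complex, had 46.3 and 48.4 CPM in viable Tpm2.1 cells, against 17 and 17.5 CPM in EV cells. MANF, a secreted ER stress protein, had 157 and 153 CPM in viable Tpm2.1 cells, against 60.7 and 66.1 CPM in EV cells, and HYOU1, the nucleotide exchange factor of BiP, had 455 and 471 CPM in viable Tpm2.1 cells, against 198 and 203 CPM in EV cells. PDIA4, a protein disulfide isomerase, had 454 and 478 CPM in viable Tpm2.1 cells, against 233 and 226 CPM in EV cells. As the 5 smallest p of the list in this comparison picked these genes, the gap between their libraries follows from the choice. The genes that did not pass were EDEM1 and SYVN1, both of ER-associated degradation, with log2 fold changes of 0.12 and 0.05, named after their values were seen.

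The ER stress response element, searched as CCAAT, 9 free bases and CCACG on both strands, occurred in 6 of 19 promoters of this list (31.6%), against 22 of 27305 (0.0806%) and 14 of the 11147 promoters of tested genes (0.126%). The 6 genes with a match had a median log2 fold change of 0.59 and the 13 without one a median of 0.71, with 6 and 11 that rose. The stretches before HSPA5 (chr9:125241344-125241543, minus strand) and CANX (chr5:179698729-179698928, plus strand) are shown because they hold the element at different distances from the start, in capitals. CANX, the lectin chaperone calnexin, named after its value was seen, had a log2 fold change of 0.60.
HSPA5: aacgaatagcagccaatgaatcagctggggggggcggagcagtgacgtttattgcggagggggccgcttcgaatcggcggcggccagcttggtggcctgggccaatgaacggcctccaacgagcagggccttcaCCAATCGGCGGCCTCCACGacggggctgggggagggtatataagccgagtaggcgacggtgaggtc
CANX: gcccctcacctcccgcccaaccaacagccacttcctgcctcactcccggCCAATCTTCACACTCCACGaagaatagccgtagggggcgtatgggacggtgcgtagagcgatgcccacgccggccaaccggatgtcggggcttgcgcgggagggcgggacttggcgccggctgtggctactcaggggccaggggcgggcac
The element lies close to the start in HSPA5 and further upstream in CANX.

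Other stress lists had lower medians. Of 15 heat shock genes, 12 rose and 1 fell (median 0.40). HSP90AB1 and HSP90AA1, the cytosolic HSP90 chaperones, rose by 0.71 and 0.62 (log2). HSPH1, the HSP110 exchange factor of HSP70, was the gene that fell, with 459.9 and 474 CPM in viable Tpm2.1 cells, against 748 and 824 CPM in EV cells (log2 fold change -0.75 ± 0.053, edgeR adjusted p = 1.25e-14). Of 20 ATF4 and amino acid stress genes 9 rose and 3 fell. DDIT3, the stress factor CHOP, had 20.4 and 18.3 CPM in viable Tpm2.1 cells, against 7.71 and 8.85 CPM in EV cells, and DDIT4, an mTORC1 inhibitor, had 174 and 168 CPM in viable Tpm2.1 cells, against 81.9 and 74.7 CPM in EV cells. The amino acid transporter gene SLC7A5 fell, with a log2 fold change of -0.55, and ATF4 itself rose by 0.39 (log2). NRF2 targets and ferritin genes split evenly, with 6 that rose and 6 that fell of 17; the ferritin chain FTL rose by 0.46 (log2).

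Pro-apoptotic and anti-apoptotic genes were both among those that changed, where 23.3% of all genes rose and 21.1% fell. Of 19 pro-apoptotic genes 8 rose and 3 fell (median 0.12). PMAIP1, the BH3-only protein NOXA that binds MCL1, had 129 and 158 CPM in viable Tpm2.1 cells, against 51.6 and 54.9 CPM in EV cells (log2 fold change 1.43 ± 0.076, edgeR adjusted p = 3.62e-18). BID, which links death receptors to mitochondria, had 30.2 and 30.4 CPM in viable Tpm2.1 cells, against 15.0 and 15.1 CPM in EV cells. BMF, a BH3-only protein known from anoikis, fell, with 30.8 and 32.8 CPM in viable Tpm2.1 cells, against 43.2 and 42.3 CPM in EV cells (log2 fold change -0.43 ± 0.085, edgeR adjusted p = 6.55e-05). Of 10 anti-apoptotic genes 5 rose and 1 fell (median 0.08). BCL2A1, a BCL2 relative induced by NF-kB, had 32.5 and 26.9 CPM in viable Tpm2.1 cells, against 4.02 and 4.30 CPM in EV cells. MCL1, a short-lived BCL2 relative, had 672 and 704 CPM in viable Tpm2.1 cells, against 363 and 350.0 CPM in EV cells (log2 fold change 0.95 ± 0.051, edgeR adjusted p = 4.43e-18). BIRC2 rose by 0.81 (log2). BIRC5, survivin, rose by 0.26 (log2), which did not pass without replicate 1 of viable Tpm2.1 cells (log2 fold change 0.17, edgeR adjusted p = 0.0926). The gene that fell, CFLAR (log2 fold change -0.27), encodes the caspase-8 inhibitor FLIP and was named after its value was seen. Without replicate 2 of viable Tpm2.1 cells 5 pro-apoptotic genes rose. Without replicate 1 of viable Tpm2.1 cells or replicate 2 of EV cells 1 of them fell, as also by DESeq2, without the filter on low counts and with the libraries of the contrast alone. Their median was 0.22 without replicate 1 of viable Tpm2.1 cells and 0.188 after correction for GC content (0.186 with a replicate block). The number of anti-apoptotic genes that fell was 0 without replicate 1 of EV cells, 2 with a replicate block, with DESeq2's size factors and after correction for GC content with or without the block, and 3 with protein-coding genes alone or without the apoptotic fraction at 4 days. Their median was 0.153 without replicate 2 of viable Tpm2.1 cells.

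Among 12 death receptor and ligand genes 6 rose and 4 fell. The TRAIL receptors differed among themselves. TNFRSF10B, the death receptor DR5, had 383 and 359 CPM in viable Tpm2.1 cells, against 292 and 274 CPM in EV cells. TNFRSF10D, a decoy receptor, rose by 0.76 (log2), while TNFRSF10C, another decoy receptor, had 8.02 and 7.37 CPM in viable Tpm2.1 cells, against 17.4 and 18.8 CPM in EV cells (log2 fold change -1.23 ± 0.15, edgeR adjusted p = 2.31e-08). TNFRSF21, the death receptor DR6, fell by 0.53 on the log2 scale. The TRAIL gene itself, TNFSF10, named after its values were seen, had 0.577 and 1.30 CPM in viable Tpm2.1 cells, against 0.0648 and 0.0623 CPM in EV cells (edgeR adjusted p = 0.00104), a low level in every library.

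Genes of adhesion and the cytoskeleton moved in both directions, as did all genes (23.3% rose and 21.1% fell), and their list medians were small. Of 35 actin and focal adhesion genes 10 rose and 11 fell (median 0.01), with 7 that fell after correction for GC content. That median was -0.033 without replicate 1 and 0.062 without replicate 2 of viable Tpm2.1 cells. FERMT2 (kindlin-2), PFN1 (profilin) and TMSB10 (a thymosin) rose by 0.53, 0.51 and 0.46 (log2), and ACTN4, a crosslinker of actin filaments, fell by 0.36 on the log2 scale. Of 22 YAP and TAZ targets 5 rose and 10 fell (median -0.17). MYOF, a membrane repair protein, had 378 and 349 CPM in viable Tpm2.1 cells, against 675 and 659.8 CPM in EV cells, and AXL, a receptor kinase, had 174 and 158 CPM in viable Tpm2.1 cells, against 234 and 248 CPM in EV cells. F3, tissue factor, and NT5E, the surface nucleotidase CD73, rose by 0.75 and 0.68 (log2). Of 14 integrin chains 5 rose and 4 fell. ITGA2, a collagen receptor chain, had 1214 and 1267 CPM in viable Tpm2.1 cells, against 867 and 857 CPM in EV cells, and ITGA5, of the fibronectin receptor, rose by 0.34 (log2). ITGB4, the hemidesmosome chain, had 113 and 61.8 CPM in viable Tpm2.1 cells, against 181 and 177 CPM in EV cells (log2 fold change -1.02 ± 0.15, edgeR adjusted p = 3.4e-07), with a wide gap between its viable Tpm2.1 replicates.

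Cell-cell adhesion genes counted 9 that rose and 5 that fell of 28, against 23.3% and 21.1% of all genes. ICAM1, the leukocyte adhesion molecule, had 79.0 and 72.2 CPM in viable Tpm2.1 cells, against 23.6 and 23.1 CPM in EV cells, and JUP, the plakoglobin of desmosomes, had 29.5 and 30.7 CPM in viable Tpm2.1 cells, against 63.6 and 85.6 CPM in EV cells. Of 12 EMT transcription factor and filament genes 5 rose and 4 fell; without replicate 1 of EV cells or replicate 1 of viable Tpm2.1 cells 3 rose. ZEB2, a repressor of epithelial genes, had 26.3 and 28.1 CPM in viable Tpm2.1 cells, against 12.6 and 9.72 CPM in EV cells, and KRT19, an epithelial keratin, had 15.0 and 17.7 CPM in viable Tpm2.1 cells, against 53.8 and 58.9 CPM in EV cells (log2 fold changes 1.29 ± 0.12 and -1.79 ± 0.10). VIM rose by 0.36 (log2). The Eph family split into 7 that rose and 3 that fell of 16. EPHA7 had 42 and 38 counts in viable Tpm2.1 cells and none in EV cells, at least 11.5-fold higher against a floor of 3 counts per EV library, and EPHA3 had 45 and 20 counts in viable Tpm2.1 cells and none in EV cells, at least 8.92-fold higher. EPHA4 had 24.1 and 21.7 CPM in viable Tpm2.1 cells, against 13.7 and 13.1 CPM in EV cells, and EPHB4 had 74.5 and 67.8 CPM in viable Tpm2.1 cells, against 91.3 and 102 CPM in EV cells. By DESeq2, or without replicate 1 of EV cells, 4 of the family rose.

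In the PI3K and AKT pathway 7 genes rose and 9 fell of 24. The catalytic subunit genes PIK3CD and PIK3CG rose by 0.63 and 0.68 (log2). TSC2, the brake on mTORC1, had 109.8 and 97.5 CPM in viable Tpm2.1 cells, against 155 and 160.3 CPM in EV cells (log2 fold change -0.60 ± 0.062, edgeR adjusted p = 3.29e-10). Without replicate 2 of EV cells 5 genes of the pathway fell. FOXO targets, which AKT activity holds down, counted 2 that rose and 6 that fell of 20, with FOXO1 itself at 16.0 and 15.6 CPM in viable Tpm2.1 cells and 29 and 26.7 CPM in EV cells. MHC class I and antigen processing genes counted 8 that rose and 4 that fell of 19. Among them NLRC5, the transactivator of MHC class I genes, fell by 0.97 on the log2 scale, while HLA-E and TAP2 rose by 0.31 and 0.44 (log2).

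Growth and metabolism lists shifted by small amounts. Ribosomal protein genes counted 36 that rose and 2 that fell of 40, with a median log2 fold change of 0.38. RPL30 had 127 and 113 CPM in viable Tpm2.1 cells, against 42.0 and 48.4 CPM in EV cells, and RPS18 had 673 and 563 CPM in viable Tpm2.1 cells, against 390.5 and 372 CPM in EV cells. Ribosomal protein genes have many pseudogenes, so that the counts of single members are uncertain. The number that fell was 1 without either EV library, without the filter on low counts or with the libraries of the contrast alone, and 0 without replicate 2 of viable Tpm2.1 cells. Hypoxia and glycolysis genes counted 19 that rose and 0 that fell of 30 (median 0.34), and 1 fell with a replicate block, DESeq2's size factors, protein-coding genes alone, the libraries of the contrast alone or without the apoptotic fraction at 4 days. PGK1, a glycolytic enzyme, had 869 and 878 CPM in viable Tpm2.1 cells, against 508 and 522 CPM in EV cells, and VEGFA, the angiogenic factor, had 836 and 968 CPM in viable Tpm2.1 cells, against 502 and 512 CPM in EV cells. HK2, the inducible hexokinase, had 164 and 195 CPM in viable Tpm2.1 cells, against 97.2 and 101 CPM in EV cells. Cholesterol synthesis genes went the other way, with 0 that rose and 16 that fell of 26 (median -0.28); 2 rose without replicate 1 of viable Tpm2.1 cells or after correction for GC content, and 1 with a replicate block, with the block and that correction, or without the filter on low counts. LSS, lanosterol synthase, had 143 and 168 CPM in viable Tpm2.1 cells, against 268 and 280.0 CPM in EV cells (log2 fold change -0.82 ± 0.072, edgeR adjusted p = 5.15e-12).

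Cell cycle lists were mixed, as were all genes, of which 23.3% rose and 21.1% fell. Of 31 G1/S and replication genes 9 rose and 6 fell (median 0.07), and of 30 G2/M genes 15 rose and 3 fell (median 0.23). Without replicate 2 of EV cells or replicate 1 of viable Tpm2.1 cells 3 of the G1/S genes fell, and without replicate 2 of viable Tpm2.1 cells 1 of the G2/M genes fell. The G1/S median was 0.026 without replicate 2 of EV cells, 0.030 without replicate 1 and 0.110 without replicate 2 of viable Tpm2.1 cells, and 0.111 after correction for GC content (0.112 with a replicate block). The G2/M median was 0.148 without replicate 1 of viable Tpm2.1 cells. CCND1, cyclin D1, had 509.9 and 541 CPM in viable Tpm2.1 cells, against 869 and 852 CPM in EV cells (log2 fold change -0.71 ± 0.056, edgeR adjusted p = 3.71e-13), and CCNE2, cyclin E2, had 11 and 10.8 CPM in viable Tpm2.1 cells, against 5.58 and 4.86 CPM in EV cells. TPX2, a spindle assembly factor, and CCNB1, cyclin B1, rose by 0.47 and 0.44 (log2), while TOP2A, topoisomerase II alpha, fell by 0.41 on the log2 scale. The inhibitor CDKN1A, p21, had 269.7 and 273 CPM in viable Tpm2.1 cells, against 109.9 and 105.5 CPM in EV cells, a log2 fold change of 1.33 ± 0.060 (edgeR adjusted p = 2.94e-20). Autophagy and lysosome genes counted 8 that rose and 4 that fell of 26. GABARAPL1, an ATG8 protein, rose by 0.94 (log2). The lysosomal proteases went apart, with CTSL at 210.4 and 208 CPM in viable Tpm2.1 cells and 123 and 122 CPM in EV cells, and CTSD at 322 and 346 CPM in viable Tpm2.1 cells and 625 and 681 CPM in EV cells.

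All 13 mRNAs of the mitochondrial genome fell, with a median log2 fold change of -1.64. MT-CO1, which encodes a catalytic subunit of cytochrome c oxidase, had 3755 and 3557 CPM in viable Tpm2.1 cells, against 11177 and 11615 CPM in EV cells (log2 fold change -1.64 ± 0.12, edgeR adjusted p = 1.81e-14). MT-ND4, of complex I, had 1937 and 1733 CPM in viable Tpm2.1 cells, against 6397 and 6379 CPM in EV cells. Mitochondrial genes took 1.43% and 1.34% of the counts in viable Tpm2.1 cells, against 4.34% and 4.36% in EV cells. At 5 hours the shares were 1.78% and 1.58% in viable Tpm2.1 cells, against 3.43% and 3.33% in EV cells. At 1 day they were 1.56% and 1.79% in viable Tpm2.1 cells, against 4.49% and 4.78% in EV cells. At 4 days they were 1.47% and 1.82% in viable Tpm2.1 cells, against 1.29% and 1.47% in EV cells. In attached cells they were 2.37% and 2.41% in Tpm2.1 cells, against 1.76% and 1.79% in EV cells. The low share of viable Tpm2.1 cells against EV cells at 2 days was thus also present at 5 hours and 1 day, and neither at 4 days nor in attached cells. The apoptotic fraction of Tpm2.1 cells, whose cells were held by the beads, had 4.49% and 2.91% at 2 days.

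**Figure D3:**
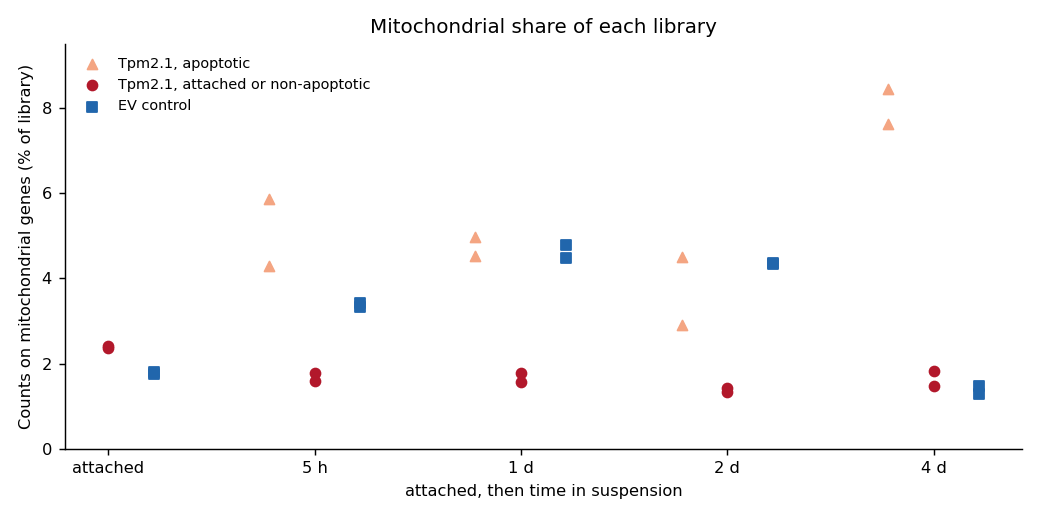
Share of each library's counts on mitochondrial genes, in percent, by condition, with separate symbols for non-apoptotic Tpm2.1 (attached: unseparated), apoptotic Tpm2.1 and EV cells. At 2 days non-apoptotic Tpm2.1 libraries lie at 1.43% and 1.34%, EV libraries at 4.34% and 4.36%, and apoptotic Tpm2.1 libraries at 4.49% and 2.91%.

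Nuclear-retained RNAs mostly fell as well. Of 8 tested, 1 rose and 7 fell (median -0.69). MALAT1, the long noncoding RNA of nuclear speckles, had 87.2 and 88.7 CPM in viable Tpm2.1 cells, against 347 and 326 CPM in EV cells (log2 fold change -1.93 ± 0.094, edgeR adjusted p = 2.4e-19). NEAT1, the scaffold of paraspeckles, had 563 and 630.1 CPM in viable Tpm2.1 cells, against 1069 and 1065 CPM in EV cells. The gene that rose, SNHG14, named after its value was seen, had 17 and 17 counts in viable Tpm2.1 cells, against 2 and 2 in EV cells. Biotypes that often mark unspliced or nuclear RNA had lower medians than protein-coding genes (0.03 on the log2 scale). The 176 sense-intronic genes tested had a median log2 fold change of -0.60 and the 1129 antisense genes one of -0.29, with 134 antisense genes that fell past 2-fold and 43 that rose. Whether the counts use strand is not given in the sources used here, so antisense reads cannot be told from those of the partner gene. Protein-coding genes took 98.3% of the counts in both viable Tpm2.1 libraries, against 97.8% in both EV libraries.

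The apoptotic fraction at 2 days was compared with the same EV and viable Tpm2.1 libraries, so that its comparisons are not independent of the main one and are given side by side. Against EV cells 5659 genes passed (32.9%), 2771 higher (16.1%) and 2888 lower (16.8%) in apoptotic Tpm2.1 cells. Against viable Tpm2.1 cells 2858 passed (16.6%), 1189 higher (6.92%) and 1669 lower (9.71%). MT-CO1 had 11098 and 7398 CPM there, with a log2 fold change of 1.34 for apoptotic over viable Tpm2.1 cells and of -0.30 for apoptotic Tpm2.1 over EV cells. MALAT1 had 242 and 205 CPM and log2 fold changes of 1.35 and -0.59. For these RNAs the apoptotic fraction stood nearer to EV cells than the viable fraction did. For inflammatory genes it stood near the viable fraction: IL1B had 811 and 1057 CPM and CXCL8 313 and 362 CPM, with log2 fold changes over viable cells of -0.12 ± 0.071 and -0.06 ± 0.096 (edgeR adjusted p = 0.283 and 0.722). HSPA5 had 1079 and 1264 CPM, and ITGA10 had 52.0 and 35.5 CPM, a log2 fold change of 0.74 ± 0.13 over viable cells (edgeR adjusted p = 0.000112). All 40 ribosomal protein genes were lower in the apoptotic than in the viable fraction (median log2 fold change -0.37), and 9 were higher and 7 lower in apoptotic Tpm2.1 than in EV cells. The labels name no separation of EV cells, and the part that dying cells among them play in these differences was not tested.

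Leukocyte markers were near absent, while 2 of 9 fibroblast and 3 of 10 endothelial markers reached 10 CPM in any of the 4 libraries. Of 13 leukocyte markers 11 were below 1 CPM in all 4 libraries, and CD3D, CD3E, MS4A1 and TYROBP were at 0 in all. Their summed level was 5.96 and 5.76 CPM in viable Tpm2.1 cells, against 3.95 and 5.11 CPM in EV cells. Of 9 fibroblast markers 6 were below 1 CPM, with sums of 44.8 and 41.2 CPM in viable Tpm2.1 cells, against 54.5 and 54.2 CPM in EV cells. Of 10 endothelial markers 5 were below 1 CPM, with sums of 297 and 264 CPM in viable Tpm2.1 cells, against 158 and 158 CPM in EV cells; TIE1 and KDR, a receptor of VEGF, rose, while PECAM1 and VWF, the defining adhesion molecule and clotting factor carrier of that cell type, had log2 fold changes of -0.28 and -0.39 and did not pass. The part of other cell types in the results above was not tested. Of 8 markers of the line, 6 reached 10 CPM in any of the 4 libraries, and VIM, CD44, EGFR, AXL and CAV1 were all expressed. The list also held ESR1, PGR and ERBB2 as genes that are low in this line. PGR had no count in these 4 libraries, while ESR1 and ERBB2 were not below 1 CPM in all of them. ESR1 or ERBB2 was thus among the 6 markers that reached 10 CPM, although both were listed as low. Epithelial markers summed to 496 and 432 CPM in viable Tpm2.1 cells, against 586 and 643 CPM in EV cells.

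The line difference at 2 days was then set against that in attached cells, which shares no library with it. In attached cells 3516 genes passed (20.5%), with 1788 higher (10.4%) and 1728 lower (10.1%) in Tpm2.1 cells. Across 17191 genes the log2 fold changes correlated at r = 0.272; the points share the scaling and the line, and genes are not independent replicates. Of the 780 genes that rose past 2-fold at 2 days, 326 (41.8%) also passed as higher in attached Tpm2.1 cells. Of the 913 that fell, 64 (7.0%) passed as lower and 85 as higher. The difference between both line differences passed for 5915 genes (34.4%), with 3149 (18.3%) in which the 2-day log2 fold change was higher and 2766 (16.1%) in which it was lower. Past 2-fold there were 1325 (7.71%), 388 higher (2.26%) and 937 lower (5.45%).

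**Figure D4:**
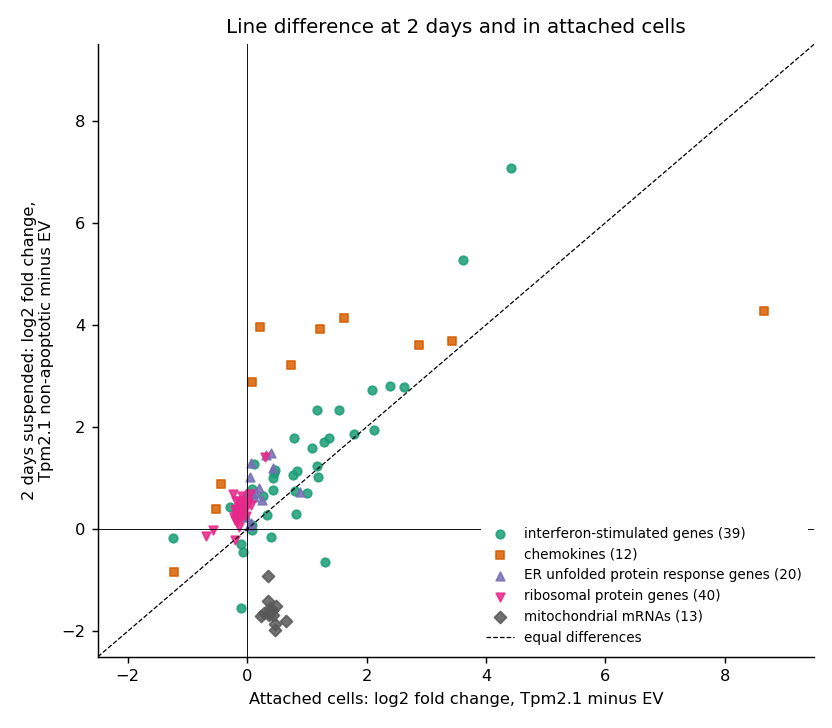
Log2 fold change of Tpm2.1 over EV cells at 2 days in suspension (vertical axis, non-apoptotic cells) against that in attached cells (horizontal axis), for the members of 5 lists with at least 1 CPM in 1 of the 4 groups; fitted values of genes at 0 in a group, such as CXCL10 in attached EV cells, are not bounds. Mitochondrial mRNAs lie above 0 in attached cells and below it at 2 days (medians -1.64 at 2 days and 0.38 in attached cells), and most ER unfolded protein response genes lie above the line of equal differences.

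By list, the inflammatory genes differed in how far attached cells already showed the change. Interferon-stimulated genes were higher in attached Tpm2.1 cells too, with 25 higher and 1 lower of 40 (median 0.79), and IFIT1 had log2 fold changes of 2.79 ± 0.097 at 2 days and 2.62 ± 0.10 attached (edgeR adjusted p of the difference = 0.392). IL1B had 5.17 ± 0.093 at 2 days and 1.25 ± 0.093 attached, a difference of 3.92 ± 0.13 (edgeR adjusted p = 3.46e-23). CSF3 had 2.65 ± 0.073 at 2 days and 0.15 ± 0.087 attached, and CXCL8 3.92 ± 0.12 and 1.22 ± 0.14, with differences of 2.49 ± 0.11 and 2.70 ± 0.20. BIRC3 had 2.56 ± 0.086 at 2 days and 2.05 ± 0.097 attached, a difference of 0.51 ± 0.13 (edgeR adjusted p = 0.00293). MMP1 had 6.49 ± 0.089 at 2 days and 3.70 ± 0.078 attached, a difference of 2.79 ± 0.10 (edgeR adjusted p = 7.61e-22). For ER unfolded protein response genes 17 of 20 had a higher log2 fold change at 2 days than attached and 0 a lower one (medians 0.70 at 2 days and 0.06 attached). For ribosomal protein genes it was 38 of 40, while 1 was higher and 14 lower in attached Tpm2.1 cells. Mitochondrial mRNAs turned round, with 13 of 13 lower in the difference between line differences (median -1.99) and 11 higher in attached Tpm2.1 cells. MALAT1 turned in the same way, at -1.93 ± 0.094 at 2 days and 1.26 ± 0.10 attached. Cholesterol synthesis genes were lower in both states, with 21 of 26 lower in attached Tpm2.1 cells.

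Single genes changed most between both states as follows. The highest differences between line differences were those of BOLA2B, IL1B, CXCL3, ESM1 and GPAT2. ESM1, a secreted proteoglycan of endothelial cells, had 11.2 and 11.2 CPM in viable Tpm2.1 cells, against 0.194 and 0.686 CPM in EV cells, and log2 fold changes of 4.64 ± 0.27 at 2 days and 0.90 ± 0.14 attached. The lowest were CXCL10, ITGA10, CAPN8, RAB17 and SLITRK6. ITGA10 had 28.8 and 23.3 CPM in viable Tpm2.1 and 217 and 237 CPM in EV cells at 2 days, and 3.36 and 2.76 CPM in attached Tpm2.1 and 1.23 and 1.84 CPM in attached EV cells. CXCL10 had 2.71 and 3.07 CPM in attached Tpm2.1 cells and no count in attached EV cells, so its fitted difference depends on the prior count. SLITRK6, a neuronal transmembrane protein, had 20.3 and 16.2 CPM in viable Tpm2.1 cells, against 26.1 and 29.5 CPM in EV cells at 2 days. The difference between line differences of SLITRK6, CAPN8, RAB17, BOLA2B and CXCL10 each lost its call when 1 of the attached or 2-day libraries was left out, with values of 1.43 for SLITRK6 and -0.17 for CAPN8 without replicate 1 of attached Tpm2.1 cells, -2.42 for RAB17 without replicate 2 of them, and 3.25 for BOLA2B without replicate 1 of attached EV cells.

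Fewer genes differed in their line difference between 1 and 2 days. In all 1606 genes (9.34%) passed for the difference between line differences, 847 (4.93%) with a higher and 759 (4.42%) with a lower log2 fold change at 2 days, and the log2 fold changes of both days correlated at r = 0.738 across 17191 genes. Past 2-fold there were 111 (0.646%), 58 higher (0.337%) and 53 lower (0.308%). The number that passed was 998 without replicate 1 of EV cells at 1 day, 872 without replicate 2 of them and 910 without replicate 2 of EV cells at 2 days. At 1 day 6880 genes passed (40%), 3393 higher (19.7%) and 3487 lower (20.3%) in viable Tpm2.1 cells. Of the genes past 2-fold at 2 days, 549 of 780 (70.4%) that rose and 538 of 913 (58.9%) that fell passed in the same direction at 1 day. ID1, ID2, ID3 and ID4, targets of BMP signalling whose products block bHLH factors, had a lower log2 fold change at 2 days. ID1 had 238 and 202 CPM in viable Tpm2.1 cells, against 215 and 209 CPM in EV cells at 2 days, and 450.0 and 362 CPM in viable Tpm2.1 cells, against 116 and 107 CPM in EV cells, at 1 day. Its log2 fold change was 0.06 ± 0.093 at 2 days and 1.86 ± 0.096 at 1 day, a difference of -1.81 ± 0.13 (edgeR adjusted p = 1.22e-11); at 2 days alone ID1 passed with a replicate block and GC correction (log2 fold change 0.18, edgeR adjusted p = 0.016). For ID2 the difference was -1.54 ± 0.25 (edgeR adjusted p = 7.67e-05). ID3 and ID4 had log2 fold changes of -0.78 ± 0.11 and -0.64 ± 0.14 at 2 days and 1.08 ± 0.11 and 1.31 ± 0.15 at 1 day. ATOH8, a bHLH factor under BMP, and GATA2, a haematopoietic and endothelial zinc finger factor, differed in the same direction. In the other direction, CSF2 had log2 fold changes of 2.81 ± 0.21 at 2 days and 1.26 ± 0.20 at 1 day, and IGFBP1, a carrier of insulin-like growth factors, 1.71 ± 0.11 and 0.22 ± 0.10. Hypoxia and glycolysis genes had 17 of 30 with a higher log2 fold change at 2 days, and 4 higher and 9 lower in viable Tpm2.1 cells at 1 day. Ribosomal protein genes had 20 of 40 with a higher one.

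At 5 hours 7024 genes passed (40.9%), 3510 higher and 3514 lower in viable Tpm2.1 cells (20.4% each), and the log2 fold changes correlated with those at 2 days at r = 0.645 across 17191 genes. HSPA5 had log2 fold changes of 1.52 ± 0.068 at 5 hours and 1.48 ± 0.069 at 2 days, IL1B 3.78 ± 0.11 and 5.17 ± 0.093, IL11 0.71 ± 0.070 and 2.66 ± 0.072, and TIMP1 0.13 ± 0.076 and 1.32 ± 0.075. TIMP3 was higher in viable Tpm2.1 cells at 5 hours (0.89 ± 0.064) and lower at 2 days (-0.80 ± 0.060); the difference between these 2 times was not tested.

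**Figure D5:**
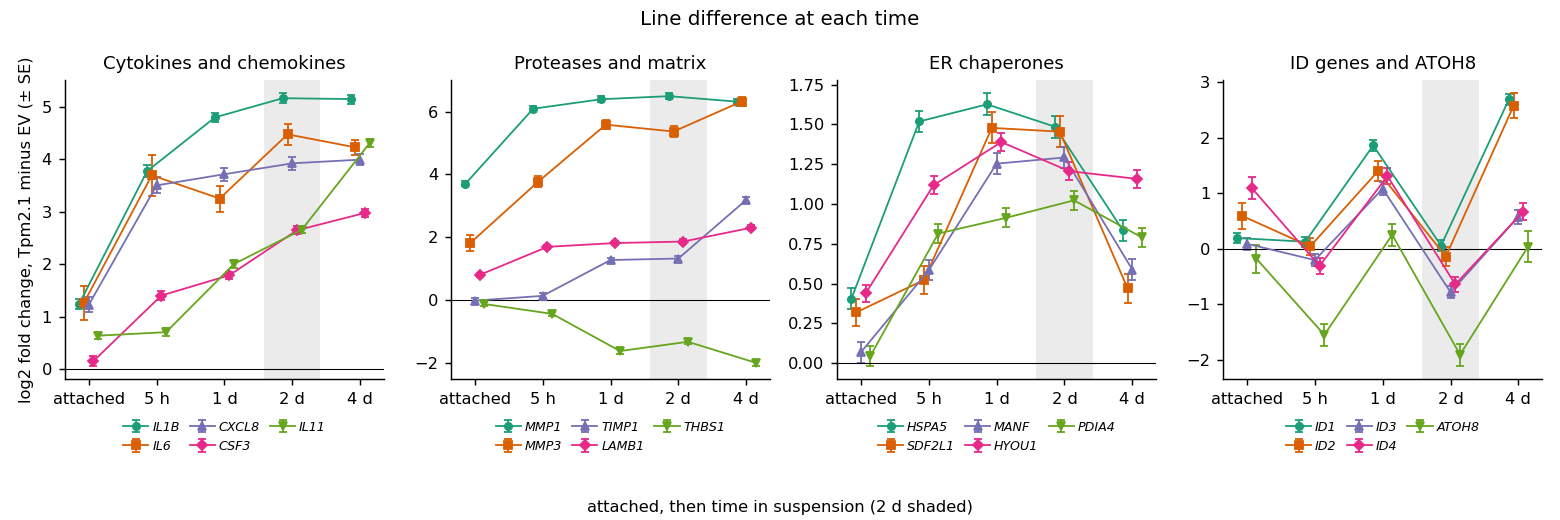
Log2 fold change of Tpm2.1 over EV cells for named genes in attached cells and at each time in suspension from 5 hours to 4 days, with standard errors as bars; suspended Tpm2.1 cells are the non-apoptotic fraction. IL1B reaches 5.17 at 2 days and 5.15 at 4 days, HSPA5 is 1.48 at 2 days and 0.83 at 4 days, and ID1 is 0.06 at 2 days and 2.70 at 4 days.

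Between 2 and 4 days the change was wider. The difference between line differences passed for 5369 genes (31.2%), 3124 (18.2%) with a higher and 2245 (13.1%) with a lower log2 fold change at 2 days, and the correlation across 17191 genes was r = 0.568. Past 2-fold there were 1230 (7.15%), with 3.39% of all genes higher and 3.77% lower. At 4 days 7552 genes passed (43.9%), 3464 higher (20.2%) and 4088 lower (23.8%) in viable Tpm2.1 cells. Cell cycle genes parted between these times. All but 1 of the 31 G1/S genes and all 30 G2/M genes were lower in viable Tpm2.1 cells at 4 days, and 29 of the G1/S and 29 of the G2/M genes had a higher log2 fold change at 2 days (median differences 1.27 and 1.26). TOP2A had log2 fold changes of -0.41 ± 0.062 at 2 days and -1.92 ± 0.068 at 4 days (edgeR adjusted p of the difference = 1.1e-15), and CCNB1 0.44 ± 0.054 and -0.74 ± 0.060. All 40 ribosomal protein genes had a higher log2 fold change at 2 days, and 34 were lower in viable Tpm2.1 cells at 4 days. Mitochondrial mRNAs had 13 of 13 with a lower log2 fold change at 2 days (median difference -1.98). Among secreted proteins IL11 had log2 fold changes of 2.66 ± 0.072 at 2 days and 4.31 ± 0.080 at 4 days, TFPI2 2.25 ± 0.11 and 3.82 ± 0.12, and TIMP1 1.32 ± 0.075 and 3.19 ± 0.079, with edgeR adjusted p of the differences of 2.57e-14, 2.81e-10 and 2.07e-16. IL1B had log2 fold changes of 5.17 ± 0.093 and 5.15 ± 0.085, a difference of 0.02 ± 0.11 (edgeR adjusted p = 0.939), and MMP1 6.49 ± 0.089 and 6.32 ± 0.087. SPNS2 had log2 fold changes of -2.42 ± 0.10 at 2 days and -5.17 ± 0.14 at 4 days. IGFBP1 and XAGE1B, a cancer-testis antigen whose reads may be shared with its copy XAGE1A, were higher against EV cells at 2 days than at 4 days; XAGE1B itself did not pass at 2 days (1.49 ± 0.70, edgeR adjusted p = 0.0817). It passed there with a replicate block (edgeR adjusted p = 0.0104), with the block and GC correction (0.00757), with the libraries of the contrast alone (3.74e-06) and without the filter on low counts (2.37e-23). Its difference between 2 and 4 days did not pass without replicate 1 of EV cells at 4 days (edgeR adjusted p = 0.0567).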

How the data were processed

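RNA-seq of 28 MDA-MB-231 libraries was analysed from 2 units that the authors deposited per gene, raw read counts and FPKM; per the labels' protocols, total RNA was taken with an RNeasy kit and mRNA selected on poly-T beads. Per the submitters' processing notes the build was hg38 and DESeq2 was used; the aligner, the counter and its use of strand were not stated. The FPKM, which the authors scaled by gene length and library size, were used only to rank tropomyosins. The deposited counts were fitted here with edgeR 4.0.16 (R 4.3.3; limma 3.58.1; TMM scaling, filterByExpr), 1 model over 14 groups of 2 libraries, so that all libraries share the estimate of spread; p-values of the quasi-likelihood F test were adjusted by Benjamini-Hochberg over 17191 genes and called under 0.05. CPM are TMM-scaled. The contrasts were Tpm2.1 minus EV at 2 days, and that difference minus the same difference in attached cells, at 1 day and at 4 days. Named genes were TPM2, EPHA2, AKT1 and AKT2, the 12 highest and 12 lowest protein-coding genes with at least 10 CPM, the 5 smallest p of each list (at least 1 CPM) and the 5 highest and 5 lowest of each difference between line differences. Some genes that this rule names are not reported here. The lists, tests and named-gene rule were chosen with earlier results of these data known. Promoters are RefSeq sequences of GRCh38.p14. Alternatives were DESeq2 1.42.0, its size factors, protein-coding genes alone, correction for GC content, all genes without the filter, a replicate block, the libraries of each contrast alone, leaving out the apoptotic fraction at 4 days and leaving out each replicate. Where that leaves 1 library in a group, it is assumed to vary like the other groups.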

Additional observations from a re-analysis of the deposited data

Results flagged for a closer look

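The following differences between line differences (2 days minus the other condition, each Tpm2.1 minus EV) passed edgeR's quasi-likelihood test of the difference itself (adjusted p under 0.05) and were the 5 highest and 5 lowest of each kind, as log2 values. Leaving out single libraries shows which values rest on them, but with groups of 2 it cannot show which library is the outlier.

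Against attached cells the highest were BOLA2B (7.48), IL1B (3.92), CXCL3 (3.74), ESM1 (3.73) and GPAT2 (3.73). IL1B had at least 21.9 CPM in all 8 libraries behind its value. The value of BOLA2B fell below the call without replicate 1 of attached EV cells (3.25, edgeR adjusted p = 0.202). The lowest were CXCL10 (-4.39), ITGA10 (-4.1), CAPN8 (-3.76), RAB17 (-3.63) and SLITRK6 (-3.1). CXCL10 had no count in attached EV cells, so that its value depends on the prior count.

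Against 1 day the highest were XAGE1B (3.31), ABI3 (1.94), CSF2 (1.55), IGFBP1 (1.49) and AK5 (1.41), of which XAGE1B lost its call by DESeq2 (adjusted p = 0.186) and without any of 5 libraries. The lowest were ATOH8 (-2.16), ID4 (-1.95), ID3 (-1.87), ID1 (-1.81) and GATA2 (-1.76). ID1, ID3 and ID4 were thus all higher against EV cells at 1 day than at 2 days.

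Against 4 days the highest were XAGE1B (4.35), the immune receptor gene SLAMF7 (3.67), the ER protein gene AGR2 (2.85), SPNS2 (2.75) and the G protein regulator gene RGS4 (2.59). The lowest were the granzyme gene GZMA (-4.84), the synapsin gene SYN1 (-3.46), RSAD2 (-3.07), ID2 (-2.72) and ID1 (-2.64). XAGE1B lost its call without replicate 1 of EV cells at 4 days (3.02, edgeR adjusted p = 0.0567) and GZMA without replicate 1 of EV cells at 2 days (-3.58, edgeR adjusted p = 0.278). RSAD2 lost it by DESeq2 (-3.33, adjusted p = 0.0822) and without any of 5 libraries, down to -1.69 (edgeR adjusted p = 0.5) without replicate 2 of EV cells at 2 days.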

How the results depend on the processing

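With protein-coding genes alone, 489 genes fell past 2-fold at 2 days (913 with all genes), 549 were lower past 2-fold against attached cells (937) and 409 against 4 days (648). In the fit over all genes, 452 of the 913 were protein-coding. Against 1 day, 33 genes were higher past 2-fold by DESeq2 (58 by edgeR) and 82 lower past 2-fold without the apoptotic fraction at 4 days (53 with it); the cause was not tested. With each replicate left out in turn, fewer samples gave 872 to 1479 passing genes against 1 day (1606 with all), 441 to 801 of them higher (847) and 416 to 678 lower (759), and 6076 to 6412 passing genes at 2 days (7634). SLITRK6 against attached cells turned to 1.43 without replicate 1 of attached Tpm2.1 cells (edgeR adjusted p = 0.604) and had -5.12 to 1.43 over the replicates left out. Over all alternatives 6076 to 8059 genes passed at 2 days, 49.8% to 54.4% of them higher (52.4% in the reported fit). Of 264 results on named genes, 247 kept their side of the threshold in every alternative. Their direction was checked only where the reported or the alternative fit passed. Most of these genes were picked as extreme in these same data, so this share does not stand for other genes. Same-numbered replicates of viable Tpm2.1 and EV cells at 2 days did not deviate together (r = -0.00204). Other times were not checked, so whether the numbers stand for shared cultures or batches is not known. With a replicate block 7574 genes passed at 2 days and 7590 with the block and GC correction. Depth of 14679852 to 20125314 counts at 2 days limits genes with few counts, such as TNFSF10 and CCL2.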
